A study of Mus musculus with 2 samples.

Results

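The 10 genes described here encode the NF-kappaB subunits, Nfkb1, Nfkb2, Rel, Rela and Relb, and the IkappaB proteins that bind them, Nfkbia, Nfkbib, Nfkbie, Nfkbiz and Bcl3. They were taken by symbol and not by a rule on their values, though earlier results of these data were known. They are 10 of 55536 annotated genes and of 22028 protein-coding genes in the tables. All 10 matched 1 annotated gene each, with 56 annotated transcripts between them. The RNA came from the nuclear fraction of C57BL/6J bone marrow-derived macrophages, which are macrophages grown in culture from marrow precursors, and was depleted of ribosomal RNA before sequencing. The cells had received 100 ng/ml Lipid A, the part of bacterial endotoxin sensed by Toll-like receptor 4, for 12 h. They were then held without it for 12 h and harvested at 0 min of a second exposure. No genetic change is named in the labels, which give neither sex nor age. The series has 2 libraries of this 1 group, biological replicates 2 and 1, made from 500 ng and 1 µg of RNA. Their biosamples carry the same donor entry, so the spread between them may be partly technical, and an effect of the RNA amount and one of the replicate cannot be told apart. No untreated or otherwise treated group was analysed here, so the values are levels at this time and not responses.

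NF-kappaB proteins are dimeric transcription factors that, in resting cells, are held mostly in the cytoplasm by IkappaB proteins. Toll-like receptor signalling activates the IkappaB kinase complex, which marks IkappaB for ubiquitination and proteasomal degradation, and the freed dimers enter the nucleus and bind kappaB sites in DNA. Several members are themselves NF-kappaB target genes, among them Nfkbia, whose newly made protein returns dimers to the cytoplasm, so that in macrophages the pathway regulates its own duration.

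The annotated genes held 18612405 expected counts in replicate 2 and 22907877 in replicate 1. Protein-coding genes held 29.5% of TPM in replicate 2 and 27.5% in replicate 1, where TPM is a transcript abundance per length, scaled to a fixed total over all entries of a library. All 10 listed macrophage markers had at least 10 TPM in both libraries, and their summed level was 3553 TPM in replicate 2 against 4691 TPM in replicate 1. Among them, the Fc receptor gene Fcgr1, differed by a log2 ratio of -1.035 between replicate 2, at 67.2 TPM, and replicate 1, at 166 TPM, and is named after its values were seen. The 24 markers listed for B cells, T and NK cells, neutrophils, dendritic cells, stromal cells and the erythroid and megakaryocyte lineages were all under 1 TPM in both libraries. Each of these lists of 4 summed to between 0.03 and 1.24 TPM, and the defining markers listed at 0 included Cd3e, Ncr1 and Ly6g.

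The sequence just before the start of several members held a kappaB site, the DNA element that the subunits bind and through which members can be targets of the pathway. RefSeq promoters of GRCm38.p6 were matched for 7 members, namely Nfkb2, Rel, Rela, Nfkbia, Nfkbib, Nfkbie and Bcl3. No entry was matched for Nfkb1, Relb and Nfkbiz. In the 250 bases upstream of the start, the kappaB consensus was found on either strand in 4 of these 7 genes, Nfkb2, Rel, Nfkbia and Nfkbie. Among all genes of the promoter table, 8.23% held it, or 2225 of 27025. The looser spaced motif GGGNNNNNCC, also read on both strands and able to overlap the consensus and itself, was found in 6 of the 7 genes, all but Nfkbib. It was found in 48.7% of all genes. The windows of the 7 genes held from 57.6% G or C (Nfkbie) to 77.6% (Rel), against a median of 52.4% over 32851 promoters. The part of base composition in these counts was not tested. Matches are descriptions of letters and not of bound sites. The sequences below lie on the coding strand of each gene, and capitals mark the kappaB consensus. The windows of Nfkbia, Nfkbie and Rel end before the first annotated exon, while the stretch of Nfkb2 lies within an annotated Nfkb2 exon, upstream of the RefSeq start.
Nfkbia, chr12:55492648-55492897, minus strand: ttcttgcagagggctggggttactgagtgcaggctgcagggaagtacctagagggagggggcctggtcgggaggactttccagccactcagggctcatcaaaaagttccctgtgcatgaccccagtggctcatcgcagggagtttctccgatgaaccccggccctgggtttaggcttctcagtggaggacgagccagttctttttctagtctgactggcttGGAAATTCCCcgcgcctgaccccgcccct
Nfkbie, chr17:45555450-45555699, plus strand: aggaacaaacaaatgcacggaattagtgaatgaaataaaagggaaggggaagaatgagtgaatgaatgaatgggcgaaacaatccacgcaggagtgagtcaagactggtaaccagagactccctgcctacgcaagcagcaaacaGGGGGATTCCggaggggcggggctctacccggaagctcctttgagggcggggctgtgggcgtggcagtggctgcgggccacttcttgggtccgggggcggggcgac
Rel, chr11:23770971-23771219, minus strand: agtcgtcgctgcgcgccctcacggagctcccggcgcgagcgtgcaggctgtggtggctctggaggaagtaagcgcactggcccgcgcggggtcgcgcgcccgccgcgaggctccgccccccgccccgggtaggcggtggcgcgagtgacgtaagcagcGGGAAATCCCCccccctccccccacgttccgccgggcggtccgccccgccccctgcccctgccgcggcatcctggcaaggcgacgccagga
Nfkb2, a stretch of 30 bases, chr19:46304693-46304722, plus strand: gtcacGGGAATTCCCCccctcggggggccg
Counted from the RefSeq start, with the base before it as -1, the Nfkbia match began at -29, the Nfkbie match at -106 and the overlapping matches in Rel at -92 and -91. Nfkb2 has 3 RefSeq promoters. Its most upstream promoter held overlapping matches at -39 and -38, shown above, and a further one at -11, while the others held a match at -236 and at -225.

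All 10 members reached 1 TPM in each library, against a background of 44.4% of protein-coding genes. The level of 10 TPM was reached in each library by 6 of 10 members, Nfkb1, Nfkb2, Rel, Relb, Nfkbia and Nfkbiz, against 19.7% of protein-coding genes. The median level was 11.9 TPM over the 10 members, 9.24 TPM over the 9791 protein-coding genes with at least 1 TPM in both libraries and 0.453 TPM over all protein-coding genes. In bulk RNA, fewer cells with a transcript and less of it per cell cannot be told apart. The highest member, Nfkbia, lay 8.19-fold above the lowest, Nfkbib, in mean TPM.

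**Figure D1:**
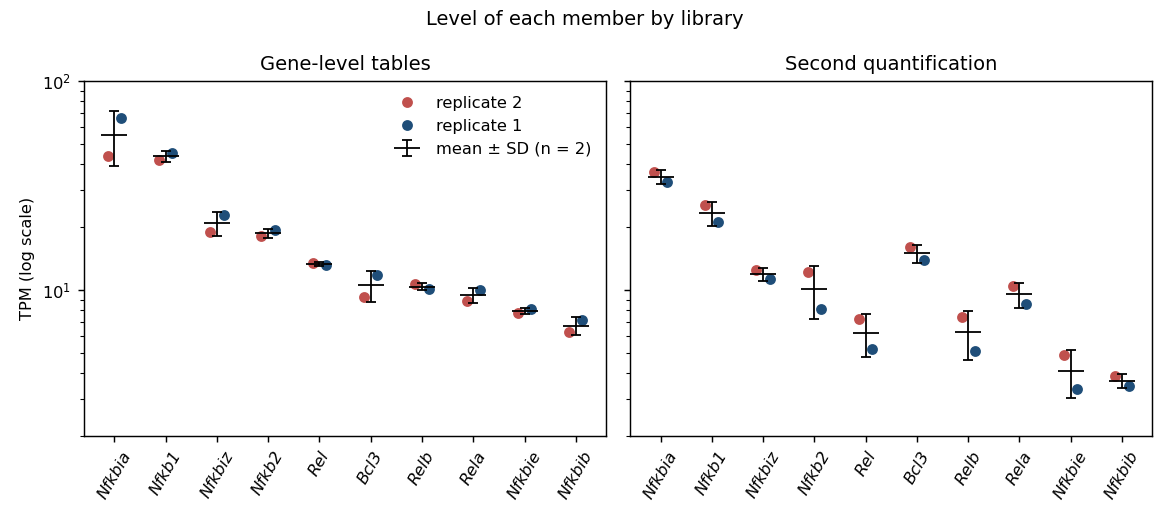
Level of each of the 10 members in TPM on a log scale, in the gene-level tables (left panel) and in the second quantification (right panel), with replicate 2 to the left of replicate 1 and black bars for the mean ± SD of the 2 libraries. Nfkbia and Nfkb1 lie above 40 TPM in both libraries of the gene-level tables and above the other 8 members in both panels.

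Among the subunits, Nfkb1 had the most RNA. Nfkb1, on chromosome 3 (mm10, 135584655 to 135691547, minus strand), encodes the precursor p105, which is processed to the DNA-binding subunit p50 and itself holds dimers as an IkappaB. It had 41.81 TPM in replicate 2 against 45.38 TPM in replicate 1, a mean of 43.6 ± 2.52 TPM (SD, n = 2), from 2768 and 3527 expected counts. This placed it at rank 980 of 22028 protein-coding genes. Nfkb1 alone made up 45.0% of the summed TPM of the 5 subunits in replicate 2 and 46.4% in replicate 1.

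Nfkb2 (chromosome 19, 46304320 to 46312385, plus strand) encodes p100, the precursor of p52 in the noncanonical branch of the pathway. Its level was 18.06 TPM in replicate 2 against 19.32 TPM in replicate 1, below Nfkb1 in both libraries. The exons of Nfkb2 share 531 bases with AC114539.1, which had 6.66 and 9.20 TPM in the same order, and 299 bases with Psd, both on the opposite strand. Whether counting used strand is not given in the sources used here, so reads of these pairs may not be separated.

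Rel (chromosome 11, 23736847 to 23770970, minus strand) encodes c-Rel, a subunit with a transactivation domain that is prominent in blood cells. It had 13.47 TPM in replicate 2 against 13.13 TPM in replicate 1, and, with an SD of 0.240 TPM, the smallest SD in TPM of the 10 members. Relb (chromosome 7, 19606217 to 19629438, minus strand), the usual partner of p52, had 10.65 TPM in replicate 2 against 10.07 TPM in replicate 1. Rela (chromosome 19, 5637483 to 5648130, plus strand) encodes p65, the main activating subunit of the canonical pathway. Its level of 8.86 TPM in replicate 2 against 9.97 TPM in replicate 1 was the lowest of the subunits in the gene-level tables. RNA levels in the nuclear fraction do not measure protein.

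Among the IkappaB genes, Nfkbia was the highest and also the most variable. Nfkbia (chromosome 12, 55489410 to 55492647, minus strand) encodes IkappaB alpha, the rapidly resynthesised inhibitor. It had 43.83 TPM in replicate 2 against 66.75 TPM in replicate 1, a mean of 55.3 ± 16.2 TPM (SD, n = 2), from 1384 and 2535 expected counts. The range of Nfkbia overlapped that of Nfkb1, so the order of these 2 highest members was not resolved by the libraries. Nfkbia made up 50.9% of the summed TPM of the 5 IkappaB members in replicate 2 and 57.2% in replicate 1.

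The nuclear IkappaB proteins differed from each other. Nfkbiz (chromosome 16, 55811375 to 55838899, minus strand) encodes IkappaB zeta, a nuclear cofactor needed for a late group of inflammatory genes that includes Il6. It had 18.87 TPM in replicate 2 against 22.81 TPM in replicate 1, overlapping the range of Nfkb2. Bcl3 (chromosome 7, 19808462 to 19822770, minus strand), which binds p50 and p52 dimers in the nucleus, had 9.28 TPM in replicate 2 against 11.80 TPM in replicate 1. Its range enclosed that of Relb. Bcl3 shares 161 exon bases with Gm16175.

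The classical inhibitors other than Nfkbia were the lowest members. Nfkbie (chromosome 17, 45555703 to 45563169, plus strand) encodes IkappaB epsilon, a slower feedback inhibitor, and had 7.76 TPM in replicate 2 against 8.12 TPM in replicate 1. Nfkbib (chromosome 7, 28758251 to 28767512, minus strand) encodes IkappaB beta, which is not strongly induced by the pathway, and had 6.29 TPM in replicate 2 against 7.22 TPM in replicate 1. Both stayed below every other member in both libraries. Nfkbib rests on the fewest reads of the 10, 165 and 216 expected counts in the same order, and shares 314 exon bases with Ccer2 and 42 with Sirt2. Rel, Rela, Relb, Nfkbia, Nfkbie and Nfkbiz share no exon bases with another gene, and neither does Nfkb1. The span of Nfkb1 does hold exon sequence of Gm43430, on the same strand, which had 6.19 TPM in replicate 2 against 7.35 TPM in replicate 1. Whether reads of Gm43430 and of Nfkb1 introns were separated was not tested.

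From the highest mean to the lowest, the order was Nfkbia, Nfkb1, Nfkbiz, Nfkb2, Rel, Bcl3, Relb, Rela, Nfkbie and Nfkbib. Of the 9 pairs of neighbours in this order, 6 had ranges, of 2 values each, that did not overlap between the libraries. Among these, the lower value of Relb, 10.07 TPM, was close to the higher value of Rela, 9.97 TPM. The second quantification put Rela above Relb and Bcl3 above Rel in both libraries. The other 3 pairs, Nfkbia and Nfkb1, Nfkbiz and Nfkb2, and Bcl3 and Relb, overlapped. The widest step between neighbours was from Nfkb1 down to Nfkbiz, a ratio of means of 2.09.

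The second quantification, a further deposited table per library made directly from the reads, gave lower TPM to most protein-coding genes. Its median log2 difference from the gene-level tables over 9783 protein-coding genes was -0.41 in replicate 2 and -0.84 in replicate 1. Nfkbia, at 36.7 and 32.8 TPM in replicates 2 and 1, and Nfkb1, at 25.4 and 21.2 TPM, were again the highest members. Bcl3 and Rel changed places the most in the order by mean TPM, Bcl3 upwards and Rel downwards. Bcl3 took the place after Nfkb1 in the second quantification, at 16.0 TPM in replicate 2 against 13.9 TPM in replicate 1, and was the only member whose TPM was above its gene-level value in both libraries. Of the other members, 8 had lower values in the second quantification in each library, while Rela, at 10.5 TPM in replicate 2 against 8.60 TPM in replicate 1, was higher in replicate 2 and lower in replicate 1. Rela was thus above Rel, at 7.28 and 5.20 TPM, and Relb, at 7.46 and 5.13 TPM, in both libraries of this table, and was not the lowest subunit there.

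Summed over all 10 members in the gene-level tables, RNA of the IkappaB members and RNA of the subunits were of similar size. These sums do not measure a balance of inhibitor and subunit. They count RNA of all transcript types, and the subunit sum includes Nfkb1, whose precursor p105 also acts as an IkappaB. The 5 IkappaB members had 86.0 TPM in replicate 2 and the 5 subunits 92.85 TPM, and in replicate 1 they had 116.7 TPM and the subunits 97.87 TPM. The log2 ratio of IkappaB over subunits was -0.11 in replicate 2 and 0.25 in replicate 1, a mean of 0.07 ± 0.26 (SD, n = 2). Its sign thus differed between the libraries, and the mean lay within their spread. Without Nfkbiz and Bcl3, which act in the nucleus and are not only inhibitors, the log2 ratio was -0.47 ± 0.30 and was below 0 in both libraries. The second quantification, with all 5 IkappaB members, gave 0.24 in replicate 2 and 0.43 in replicate 1, above 0 in both. Over coding transcripts alone, an alternative chosen after seeing the data, the mean was 0.57.

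Between the libraries, no member passed the rule for genes set apart, a log2 ratio of 1 or more in size with a mean count of 100 or more. Over all 10198 genes with such a mean count, 205 passed, or 2.01%, of which 85 were higher and 120 lower in replicate 2. Log2 ratios of replicate 2 over replicate 1, after TMM scaling, which sets libraries to a common scale by a trimmed mean of gene ratios, were below 0 for 7 members and above 0 for 3, Rel, Relb and Nfkbie. From expected counts, Nfkbia had the largest difference. Its log2 ratio was -0.62, a ratio of 0.652, with a 95% exact counting interval of -0.71 to -0.52, and 8.36% of the tested genes had a larger absolute ratio. The ratio of Nfkbia in the second quantification was -0.31, also below 0 after TMM scaling but smaller in size than that of Nfkbiz, -0.34, whereas the TPM of Nfkbia there was higher in replicate 2. In that table the TPM of all 10 members was higher in replicate 2, where protein-coding genes held 21.2% of TPM, against 15.0% in replicate 1.

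The interval of 3 further members excluded 0, all lower in replicate 2. With Nfkbia this made 4 of 10 members, against 57.3% of the 10198 genes in either direction and 29.8% lower in replicate 2. These were Nfkbiz with a log2 ratio of -0.29 (95% interval -0.38 to -0.19), Bcl3 with -0.27 (-0.49 to -0.05) and Nfkb1 with -0.09 (-0.17 to -0.02). The remaining 6 members ranged from -0.15 for Rela to 0.13 for Relb, with intervals that included 0. The intervals cover counting error only, and each ratio sets 1 library against 1 other, so no test was made.

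**Figure D2:**
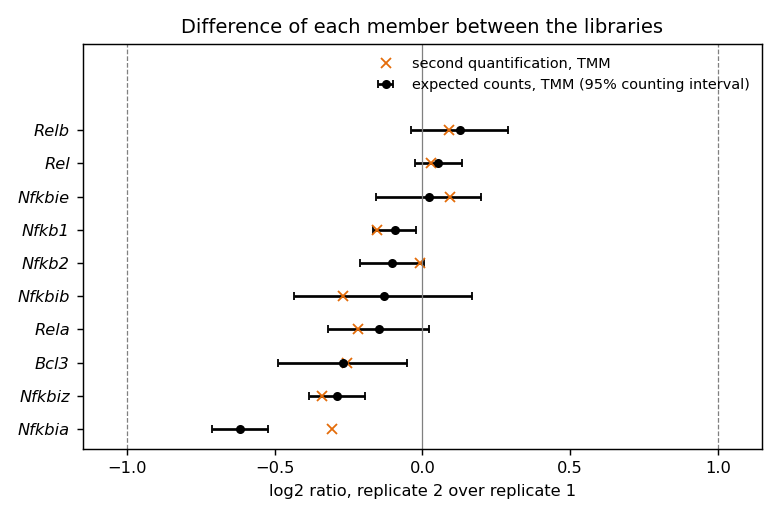
Log2 ratio of replicate 2 over replicate 1 for each member after TMM scaling, from expected counts (black points with 95% counting intervals) and from the second quantification (orange crosses), with dashed lines at the log2 ratio of 1 in either direction used for genes set apart. All 10 members lie inside the dashed lines, Nfkbia the farthest from 0 at -0.62.

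The annotation assigns some transcripts of a gene to the type retained intron, in which sequence of an intron stays in the RNA. Such transcripts are annotated for 7 members, all but Rel, Nfkbib and Nfkbiz. In the transcript tables with expected counts, they held over 50% of the transcript TPM in both libraries in 1 of these 7 members, Nfkb1, against 15.4% of the 6143 genes compared. The median share over the 7 members was 27.1% ± 0.183 (SD, n = 2), and over the 6143 genes 29.95% ± 1.02. Single members ranged from 2.89% ± 0.138 in Nfkb2 to 61.3% ± 0.547 in Nfkb1. On other measures the median of the members lay further below that of all genes, at 18.7% against 34.99% in the second quantification and at 8.57% against 17.8% as a share of expected counts. In the nuclear fraction, unspliced precursor RNA also gives reads in introns. Its part in these shares was not tested.

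**Figure D3:**
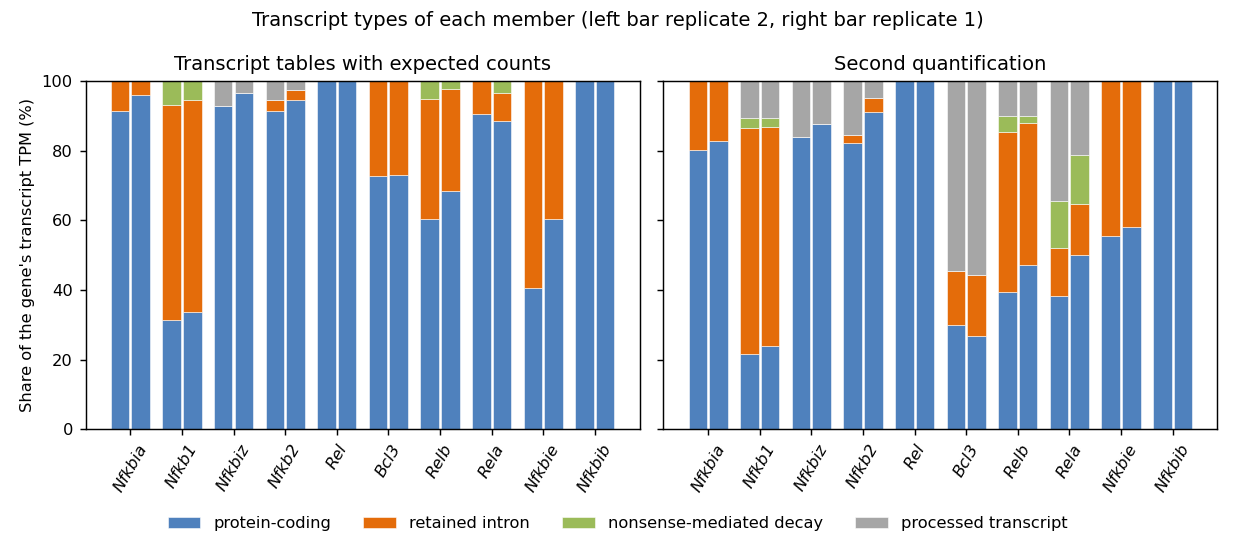
Share of each member's transcript TPM by annotated transcript type, in percent, for replicate 2 (left bar) and replicate 1 (right bar), in the tables with expected counts (left panel) and in the second quantification (right panel). Retained-intron transcripts hold 61.7% and 60.9% of Nfkb1 in the left panel, and processed transcripts hold 54.5% and 55.6% of Bcl3 in the right panel.

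Nfkb1 was led by RNA that is not annotated as coding. Its retained-intron share was 61.7% in replicate 2 and 60.9% in replicate 1, higher than in 90.6% of the 6143 genes, and its mean was 64.03% in the second quantification. Protein-coding transcripts held 31.5% and 33.7%. The most abundant Nfkb1 transcript, Nfkb1-204, had 13.14 TPM in replicate 2 against 14.09 TPM in replicate 1. It starts at the annotated start of the gene and ends 1824 bases into intron 12 of 24, which is 4118 bases long, so that 53.9% of its 3383 bases lie outside coding exons. The complete coding transcript Nfkb1-206, of 971 codons, had 7.62 TPM in replicate 2 against 9.61 TPM in replicate 1. Nfkb1-201, which carries the same coding sequence, was listed at 0 in both libraries, and the second quantification gave it 0.709 and 0.244 TPM.

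Nfkb1-210, with 5.72 TPM in replicate 2 against 5.99 TPM in replicate 1, covers 1851 of the 2169 bases of intron 16, and 92.9% of it lies outside coding exons. Nfkb1-208, with 4.35 TPM in replicate 2 against 3.96 TPM in replicate 1, holds 3175 bases of intron 7 and 810 bases of intron 8. Both are stretches of intron with little exon. Nfkb1-202 differs from them, since it runs towards the end of the gene and holds 188 bases of intron 12. It had 2.57 TPM in replicate 2 against 3.59 TPM in replicate 1.

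**Figure D4:**
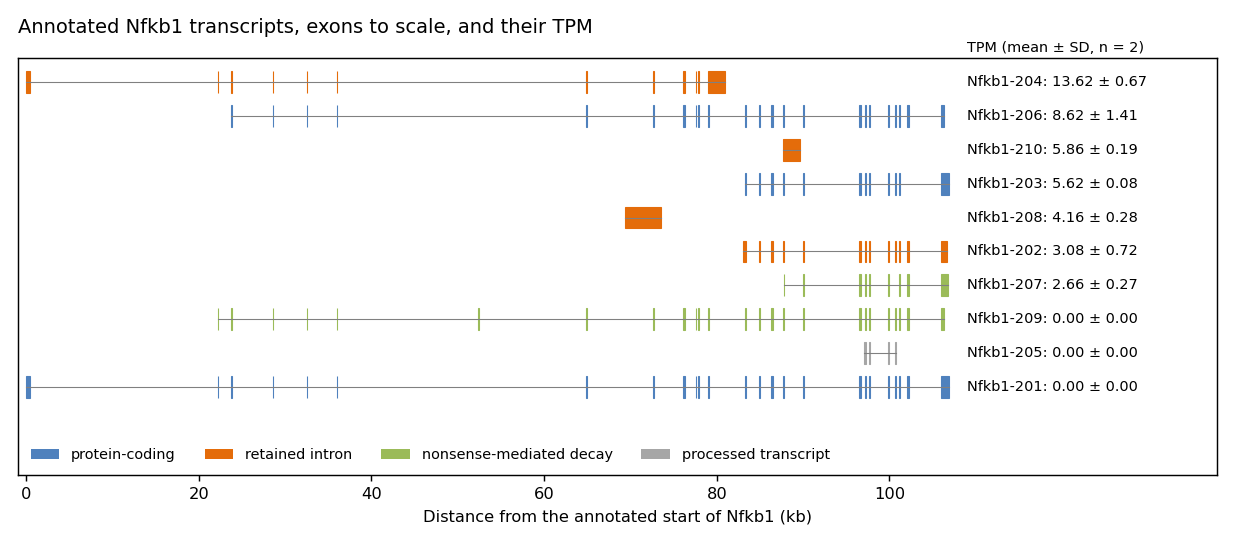
Annotated Nfkb1 transcripts drawn to scale by distance from the annotated start of the gene in kb, with exons as boxes coloured by transcript type, introns as thin lines and the mean ± SD of TPM over the 2 libraries at the right. The retained-intron transcript Nfkb1-204 is the highest at 13.6 ± 0.67 TPM and ends within intron 12.

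Nfkbie and Relb were split between coding and retained-intron transcripts. Nfkbie had a retained-intron share of 59.4% in replicate 2 and 39.7% in replicate 1, an SD of 13.97 percentage points and the widest spread of the 7 members. Its transcript Nfkbie-202, which keeps the whole intron 2 of 610 bases, had 4.61 TPM in replicate 2 against 3.22 TPM in replicate 1. The coding Nfkbie-201, of 364 codons, had 2.29 TPM in replicate 2 against 4.37 TPM in replicate 1, so the order of these transcript estimates differed between the libraries. In replicate 1 the deposited TPM intervals overlapped, 3.04 to 5.07 for Nfkbie-201 and 2.51 to 3.82 for Nfkbie-202, so the order there was not resolved. In replicate 2 they were apart, at 0.81 to 3.29 and 3.60 to 5.25. The second quantification did not show this difference in order. It put Nfkbie-201, at 2.56 and 1.77 TPM, above Nfkbie-202, at 2.16 and 1.41 TPM, in both libraries, with a retained-intron share of 44.5% in replicate 2 and 41.9% in replicate 1. Relb had a share of 34.7% in replicate 2 and 29.3% in replicate 1, carried mostly by Relb-206, at 2.86 and 2.56 TPM, which holds 966 of the 1324 bases of intron 5. The second quantification gave Relb-206 0.435 and 0.00578 TPM, and gave 1.64 and 1.35 TPM to Relb-205, which holds the same stretch and was at 0 in the tables with expected counts. The tables thus gave this stretch to different transcripts.

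The splice sites that these transcripts read through were read from GRCm38 and are shown 5′ to 3′ on the strand of the gene, as 20 bases either side of the boundary. Capitals mark the bases at the end of the intron, GT at the 5′ splice site and AG at the 3′ splice site.
Nfkb1-204, 5′ splice site of intron 12, chr3:135612394-135612433, minus strand: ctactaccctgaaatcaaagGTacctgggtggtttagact
Nfkb1-210, 5′ splice site of intron 16, chr3:135603690-135603729, minus strand: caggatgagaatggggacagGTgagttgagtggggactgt
Nfkb1-208, 5′ splice site of intron 8, chr3:135618784-135618823, minus strand: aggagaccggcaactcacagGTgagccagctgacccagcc
Nfkbie-202, 5′ splice site of intron 2, chr17:45558578-45558617, plus strand: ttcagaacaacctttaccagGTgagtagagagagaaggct
Relb-206, 3′ splice site of intron 5, chr7:19616418-19616457, minus strand: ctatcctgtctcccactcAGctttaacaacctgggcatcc
All 5 boundaries carry the usual GT or AG.

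In the tables with expected counts, Nfkbia, Nfkb2 and Rela were mostly assigned to transcripts annotated as coding. Nfkbia-201, of 314 codons, had 40.08 TPM in replicate 2 against 64.05 TPM in replicate 1, and the retained-intron transcript Nfkbia-202, with 32 bases of intron 1, had 3.74 and 2.71 TPM. Most of the difference of Nfkbia between the libraries thus lay in its coding transcript. Coding transcripts held 91.5% of Nfkb2 in replicate 2 and 94.7% in replicate 1. Nfkb2-202 led with 9.30 and 8.87 TPM, followed by Nfkb2-201 with 3.35 TPM in replicate 2 against 6.42 TPM in replicate 1, both with the same coding sequence of 899 codons. In the second quantification Nfkb2-202 also led, at 6.20 and 4.25 TPM, but Nfkb2-204, with the same coding sequence, was next at 2.03 and 1.36 TPM. Nfkb2-201 had about 0 TPM in replicate 2 there and 0.562 TPM in replicate 1. Rela-201, of 549 codons, had 8.03 TPM in replicate 2 against 8.84 TPM in replicate 1, while the second quantification assigned 34.5% of Rela in replicate 2 and 21.2% in replicate 1 to processed transcripts, which have no annotated coding sequence. Its coding share was 38.4% in replicate 2 and 50.02% in replicate 1 in that table, against 90.6% and 88.6% in the tables with expected counts.

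Bcl3 depended on the table. In the tables with expected counts, the coding Bcl3-201, of 448 codons, had 6.73 TPM in replicate 2 against 8.17 TPM in replicate 1, and the processed transcripts Bcl3-204 and Bcl3-205 were listed at 0. In the second quantification, Bcl3-204 had 5.56 and 4.43 TPM and Bcl3-205 3.18 and 3.31 TPM. Together they made up 54.5% of Bcl3 in replicate 2 and 55.6% in replicate 1. Coding Bcl3 transcripts were lower in the second quantification than in the tables with expected counts, at 4.82 and 3.74 TPM against 6.75 and 8.63 TPM in replicates 2 and 1.

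The members without an annotated retained intron each had 1 leading coding transcript. Rel has a single annotated transcript, of 7466 bases and 588 codons. Nfkbiz-204, of 728 codons, had 17.24 TPM in replicate 2 against 21.31 TPM in replicate 1, while Nfkbiz-203, of 629 codons, had 0.29 and 0.69 TPM. Nfkbiz-204 starts inside the annotated gene, and the upstream transcript Nfkbiz-201 with the same coding sequence was listed at 0. Nfkbib-202 had 5.97 TPM in replicate 2 against 7.02 TPM in replicate 1, and shares its 359 codons with Nfkbib-201, at 0.32 and 0.20 TPM.

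Counting only transcripts annotated as protein-coding, a view added after the data were seen, changed the order of the members. Nfkbia stayed first at 52.1 ± 16.9 TPM (SD, n = 2), followed by Nfkbiz at 19.8 ± 3.16, Nfkb2 at 17.4 ± 1.25 and Nfkb1 at 14.2 ± 1.48 TPM. The Nfkb1 value includes Nfkb1-203, whose annotated coding sequence of 533 codons is incomplete. Nfkb1-203 had 5.56 TPM in replicate 2 against 5.67 TPM in replicate 1. The complete Nfkb1-206 alone, at 7.62 and 9.61 TPM in the same order, was below Rel in both libraries. By mean, Nfkb1 went to the fourth place, next to Rel at 13.3 ± 0.240 TPM, and Nfkbie was the lowest at 4.03 ± 1.24 TPM. The order of Nfkb1 and Rel was not resolved. Coding Nfkb1 had 13.18 TPM in replicate 2, below Rel at 13.47 TPM, and 15.28 TPM in replicate 1, above Rel at 13.13 TPM. In the second quantification, coding Nfkb1, at 5.48 and 5.04 TPM in replicates 2 and 1, was below Rel, at 7.28 and 5.20 TPM. On this measure the log2 ratio of summed IkappaB over subunit TPM was 0.57.

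Around the members, the genes that carry the signal were also present. Lists of 65 other pathway genes were drawn up with earlier results of these data known, so their levels are a description. Of these, 61 had at least 1 TPM and 41 at least 10 TPM in both libraries, against 44.4% and 19.7% of protein-coding genes. The same shares are the background for the counts of each list below. None of the 60 with a mean count of at least 100 was set apart between the libraries, where 2.01% of all genes were.

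All 11 genes listed for the IkappaB kinases and the kinases upstream, with their subunits, had at least 1 TPM in both libraries, and 8 had at least 10 TPM. The median of the members, 11.9 TPM, was below the 37.7 TPM of this list. The highest was Ikbke, an inducible IkappaB kinase-related kinase that acts in interferon signalling, at 292 TPM in replicate 2 against 345 TPM in replicate 1. The lowest was Tab3, an adaptor of the kinase TAK1, at 3.82 ± 0.283 TPM (SD, n = 2). Adaptors and ubiquitin ligases numbered 13, all with at least 1 TPM and 9 with at least 10 TPM, around a median of 26.6 TPM. Birc3, the ubiquitin ligase cIAP2, was the highest of them, at 51.09 TPM in replicate 2 against 63.23 TPM in replicate 1. Traf3, which restrains the noncanonical branch, was the lowest at 6.54 ± 0.467 TPM.

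The machinery that degrades IkappaB had 6 listed genes, all with at least 1 TPM and 5 with at least 10 TPM, at a median of 14.5 TPM. It ran from 84.7 ± 7.71 TPM for the ubiquitin-conjugating enzyme Ube2d3 to 7.93 ± 1.60 TPM for Skp1a, a subunit of the SCF ubiquitin ligase. All 8 deubiquitinases and partners of A20, which damp the pathway, had at least 10 TPM in both libraries. Tnip3, a partner of A20, was the highest of these at 64.2 ± 12.5 TPM, and Otulin, which removes linear ubiquitin chains, the lowest at 12.9 ± 0.523 TPM.

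The 7 other IkappaB-like and nuclear regulators were lower. Of these, 6 had at least 1 TPM and 0 had at least 10 TPM in both libraries, at a median of 5.07 TPM. Akirin2, a nuclear cofactor of NF-kappaB, was the highest at 13.71 TPM in replicate 2 against 9.95 TPM in replicate 1. Nkrf, an NF-kappaB repressing factor, was the lowest at 1.13 ± 0.262 TPM.

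Inducible target genes spread the most widely. Of the 20 listed, 17 had at least 1 TPM and 11 at least 10 TPM in both libraries, at a median of 16.0 TPM. Ccl5, a chemokine that attracts T cells, had the highest mean, 679 ± 254 TPM. Csf2, which encodes the growth factor GM-CSF, had 0 expected counts in both libraries. With 3 counts as the limit, this allows a level of up to 0.209 TPM in replicate 2 against 0.183 TPM in replicate 1. The second quantification gave Csf2 0.164 TPM in replicate 2 against 0.0459 TPM in replicate 1.

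**Figure D5:**
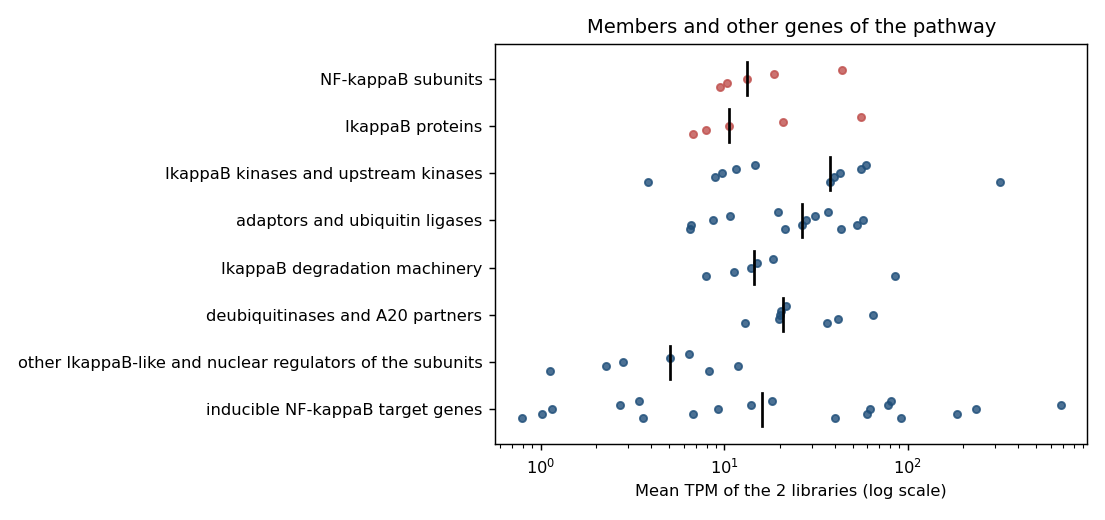
Mean TPM of the 2 libraries on a log scale for each member (red points) and each gene of 6 other pathway lists (blue points), with a black line at the median of each list. Csf2 is at 0 and not drawn, the medians run from 5.07 TPM for other IkappaB-like and nuclear regulators to 37.7 TPM for the kinases, and the subunits and IkappaB proteins lie at 13.3 and 10.5 TPM.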

How the data were processed

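The deposited gene-level tables hold an expected count and a TPM per gene, and the deposited transcript tables hold the same units per transcript, both derived from alignments to the transcriptome. A second quantification, deposited as a transcript table per library, holds an estimated count and a TPM and derives straight from the reads. These origins, the assembly mm10 and the GENCODE mouse release 21 are given per the deposited notes beside the files, while programs, versions and strand use were not given in the sources used here. Entries that name no annotated gene held 0.336% of counts in replicate 2 and 1.01% in replicate 1 and were left out of library sizes. Symbols, transcript types and introns came from the GENCODE annotation of GRCm38, promoters from a RefSeq table.

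The members and lists were chosen with earlier results of these data known. All 10 members are named, and per pathway list the highest and lowest gene by mean TPM and any gene set apart between the libraries. TPM values were used as deposited, and second-quantification TPM was summed over the transcripts of a gene. Ratios used expected counts rounded to whole numbers, TMM factors from edgeR 4.0.16 in R 4.3.3 and a prior count of 0.5. With 1 group no p-value was computed. Intervals are exact (Clopper-Pearson) 95% intervals of 2 counts and cover counting error only, like the limit of 3 counts at 0. The ratio step was run on simulated counts with planted changes larger than the rule for genes set apart. That run checks the computation and not the calls in these libraries. Alternatives were DESeq2 1.42.0 size factors, library totals, the second quantification, other minimums and leaving out each library. Python 3.11.15, pandas 2.3.3, numpy 2.4.6, scipy 1.17.1 and matplotlib 3.10.9 did the rest.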

Additional observations from a re-analysis of the deposited data

How the results depend on the processing

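The count of members with at least 10 TPM in both libraries, 6, was 4 in the second quantification, 10 at a minimum of 5 TPM, 2 at a minimum of 20 TPM and 10 with TPM rescaled to protein-coding genes, and 6 to 7 without 1 replicate. The log2 ratio of IkappaB over subunit TPM, 0.07, was 0.33 in the second quantification, -0.47 without Nfkbiz and Bcl3 and 0.57 over coding transcripts alone, an alternative chosen after seeing the data, and -0.11 to 0.25 without 1 replicate. The members' median retained-intron share of 27.1%, against 29.95% for all genes, was 18.7% against 34.99% in the second quantification and 8.57% against 17.8% as a share of expected counts, which weights long transcripts more, and 26.9% to 27.2% without 1 replicate. The 205 genes set apart became 332 at a mean count of at least 50 and 501 in the second quantification, against 215 with DESeq2 size factors and 199 with library totals. No alternative reversed the sign of a member's count ratio between the libraries. Only the ratio of Nfkbia in the second quantification, -0.31, left its counting interval. TPM could differ in direction from these ratios. Nfkbie had 7.76 TPM in replicate 2 against 8.12 TPM in replicate 1 with a log2 ratio of 0.02. In the second quantification the TPM of all 10 members was higher in replicate 2. The cause of these differences was not tested. No paired analysis was possible because the series has 1 group and no result comes from a test. With 2 libraries of 1 group, an SD rests on 1 difference, and a member with few counts, such as Nfkbib, has the widest counting interval.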
